A study of Mus musculus with 12 samples.

Results

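Gene expression was compared between cardiomyocytes grown from mouse embryonic stem cells (CM) and stem cells of the same line left without leukemia inhibitory factor (ES-LIF(-)). The arrays were taken by their labels, 3 for CM and 3 for ES-LIF(-), 6 of the 12 arrays in the series, and every non-control probe set entered, 45037 of 45101. Both groups came from the CGR8 line, derived from the inner cell mass of the blastocyst and kept without feeder cells in 7.5% fetal bovine serum. For ES-LIF(-) the factor had been withdrawn 48 h before sampling. CM cells had been stimulated as stem cells with a mixture of BMP, TGFβ, IL13, IL3, IGF1, VEGF, EGF, FGF and IL6, then held for 9 days in 20% serum and enriched on a density gradient. The groups thus differed in growth factors, serum, time and purification together, and all samples were of 1 cell line. The remaining arrays, 3 of stem cells with LIF (ES-LIF(+)) and 3 of cardiopoietic cells (CP), were used to estimate the spread and for values side by side. CP cells came from the same mixture but were held for 5 days in 3% serum with TNFα and enriched at other densities, so they differ from CM in medium as well as in time.

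A cardiomyocyte is filled with sarcomeres, in which thick filaments of myosin pull on thin filaments of actin each time calcium binds the troponin complex. It burns mainly fatty acids in its mitochondria, releases calcium from an internal reticulum at each beat and largely leaves the cell cycle as it matures. A mouse stem cell in LIF, by contrast, divides fast on a core of Pou5f1, Sox2 and Nanog, and within days of losing LIF it lowers the targets of STAT3 and takes on genes of the later, primed epiblast.

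Each value was a signal in array units, scaled on every array to the same trimmed mean of 500. Differences below are CM minus ES-LIF(-) on the log2(signal + 16) scale, which understates the change of genes with low signals, and a call needed an adjusted p under 0.05 in limma and a fold above 1.5. The 3 CM arrays lay 0.414 to 0.445 log2 units apart (root mean square over probe sets), the ES-LIF(-) arrays 0.450 to 0.488, and arrays of different groups about 1.2 to 1.3. Marker genes bore out the labels: all 7 cardiomyocyte markers rose, and their summed signal went from 689 to 852 on the ES-LIF(-) arrays to 91968 to 104837 on the CM arrays. All 6 markers of undifferentiated stem cells fell, from a summed signal of 52319 to 56833 on the ES-LIF(-) arrays to 16296 to 23216 on the CM arrays, and all 6 were still above the median signal of every CM array. In RNA pooled from many cells a smaller share of cells of a type and less RNA per cell cannot be told apart.

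Of 13145 genes tested, 3198 (24.3%) were higher and 3217 (24.5%) lower in CM, and 6730 were not called. The values of the 2 groups did not overlap in 3133 of the higher and 3178 of the lower genes. Over probe sets, 26.1% of 26083 tested were higher and 21.7% lower. The even split rested on the scaling. With each array centred on its median, 2188 genes were higher and 4658 lower, so that 32.0% of calls were higher against 49.9% here, and with quantile normalization 41.4% were. The median difference over all genes was 0.03 as scaled, -0.27 after centring and -0.12 after quantile normalization. The 2 directions differed in reach. Above 10-fold, 270 genes were higher and 9 lower, and above 50-fold 38 were higher and 0 lower.

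**Figure D1:**
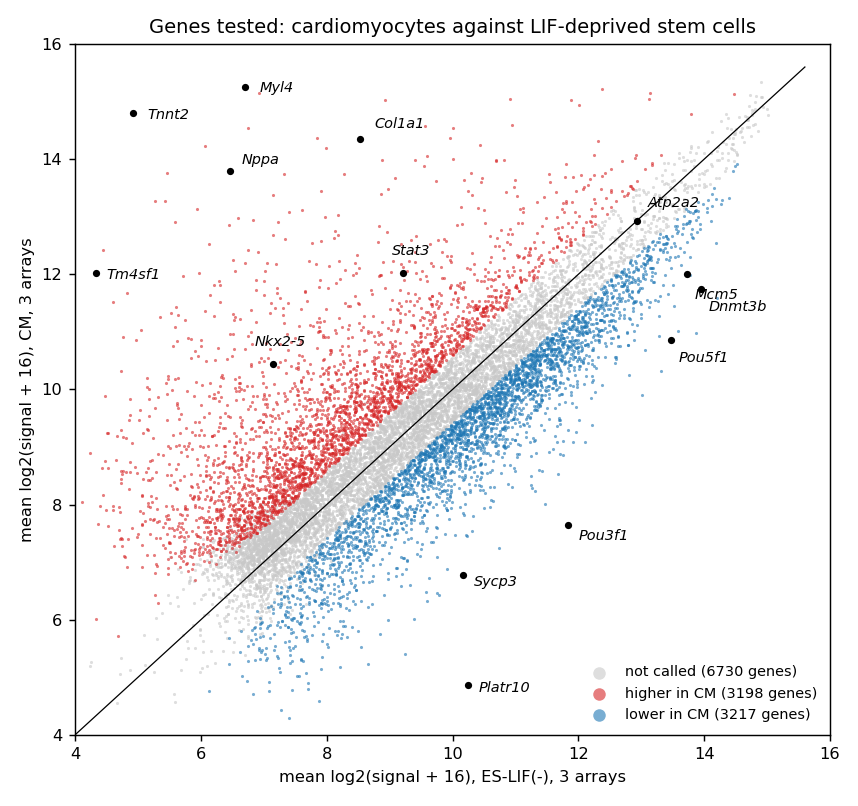
Mean log2(signal + 16) of the 3 ES-LIF(-) arrays (x axis) and of the 3 CM arrays (y axis) for each of the 13145 genes tested, with genes higher in CM in red, lower in blue and not called in gray, and the line of equal values. Red points rise far above the line at the left edge, led by Tnnt2 at a difference of 9.89, while the lowest blue point, Platr10, is at -5.38.

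The 15 largest rises were Tnnt2, Myl4, Myl2, Myl7, Ankrd1, Smpx, Sln, Tnni3, Tnnc1, Tm4sf1, Nppa, Tnni1, Lox, Aldh1a1 and Mb, from 9.89 down to 6.86. They were taken among called genes whose groups did not overlap. For these 15 the lack of overlap, also where it is stated below, follows from that choice. Most of the 15 are muscle genes: 7 encode parts of the contractile filaments, Ankrd1 and Smpx proteins of the Z-disk region and its surroundings, Sln a regulator of the calcium pump, Nppa a hormone and Mb the oxygen store of muscle. The exceptions were Tm4sf1, a membrane protein, Lox, which cross-links collagen, and Aldh1a1, which makes retinoic acid. These 3 were already high at the cardiopoietic stage. Tm4sf1 read 5605, 5358 and 5329 on the CP arrays against 4580.3, 4445 and 3478 on the CM arrays and 2.6, 4.3 and 5.5 on the ES-LIF(-) arrays. Tnnt2, in contrast, read 414, 602 and 527 at CP, far under its CM values.

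Thick filament genes had the highest median of the 38 lists, marker lists aside. Of 12 tested, 11 were higher and 0 lower, with a median log2 difference of 6.01 against 0.03 over all genes. With no filter on the signal 11 of 13 were higher, beside 14 of 15 thin filament and 22 of 22 Z-disk genes. Myl4, the atrial essential light chain, read 97.4, 76.9 and 92.0 on the ES-LIF(-) arrays and 38665, 35346 and 43426 on the CM arrays. Its log2 difference was 8.55 ± 0.15 (SE), with an adjusted p of 4.7e-15 in limma. Every CM array thus stood far above every ES-LIF(-) array. The regulatory light chains of atrium and ventricle rose alike. Myl7, the atrial form, went from 95.6, 149.9 and 80.6 to 35236, 33108 and 40352 (log2 difference 8.22 ± 0.22). Myl2, the ventricular form, went from 15.3, 55.8 and 21.4 to 13887, 14230.3 and 13399 (log2 difference 8.30 ± 0.35). The groups were far apart for both. Myh6, the fast cardiac heavy chain, rose from 233, 241 and 243 to 20414, 16867 and 18832, a log2 difference of 6.19 ± 0.17. Myh7, the slow heavy chain that leads in the mouse heart before birth, rose from 102, 90.4 and 66.7 to 930.2, 879.7 and 864, a log2 difference of 3.16 ± 0.31. No CM value of either gene overlapped one of ES-LIF(-), and the levels of separate probe sets cannot be compared. Myom1 (6.14), which ties thick filaments together at the M-band, and Mybphl (6.05), a myosin-binding protein, also rose. Myh7b, a minor myosin, was the member not called, at -1.32 (adjusted p = 0.0517), and it fell past the threshold in 6 of the other settings, leaving out CM replicate 2 among them (17.0, 183 and 32.4 on the CM arrays).

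**Figure D2:**
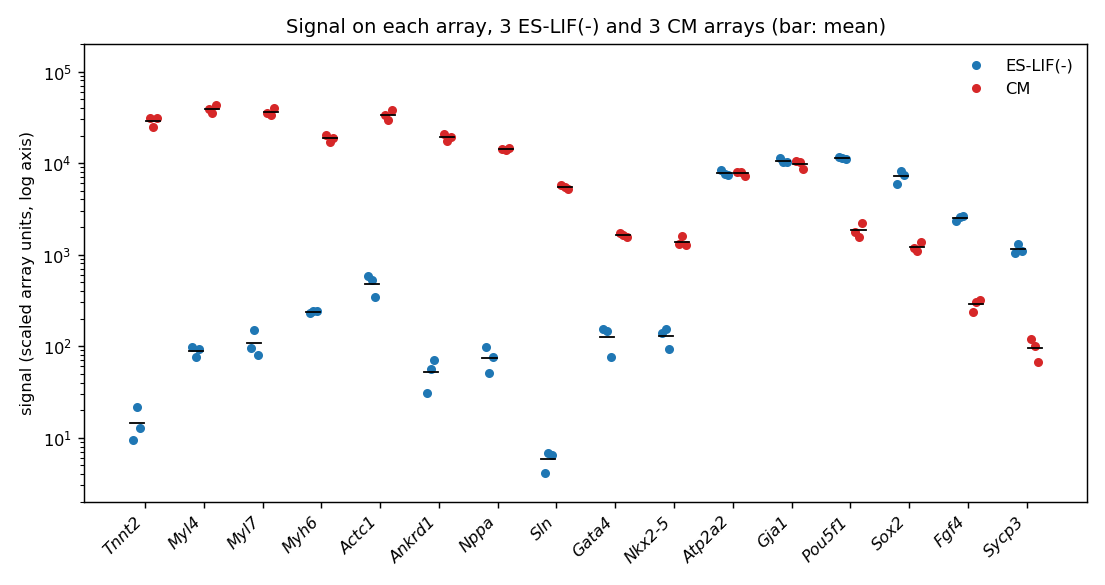
Signal (log axis) of 16 genes on each of the 3 ES-LIF(-) arrays (blue) and 3 CM arrays (red), with group means as bars. The 10 cardiac genes from Tnnt2 to Nkx2-5 stand clear of their ES-LIF(-) values, Atp2a2 and Gja1 overlap at the probe sets used, and Pou5f1, Sox2, Fgf4 and Sycp3 lie lower in CM.

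All 14 thin filament genes tested were higher, with a median log2 difference of 4.30. Tnnt2, cardiac troponin T, which anchors the troponin complex, read 9.4, 21.4 and 12.8 in ES-LIF(-) and 30709.8, 24471 and 30739 in CM. That was a log2 difference of 9.89 ± 0.18 (adjusted p = 1.02e-14), the largest of all genes. The troponin I genes rose together. Tnni3, the adult cardiac form, went from 36.7, 40.8 and 10.7 to 10060.3, 10537 and 9034 (log2 difference 7.84 ± 0.29). Tnni1, the slow form of fetal heart, went from 19.2, 52.0 and 30.3 to 7041, 8441 and 7444 (log2 difference 7.31 ± 0.33). Fetal and adult forms were therefore high in the same cultures, with no overlap between groups for either. Tnnc1, the calcium-binding troponin C, rose from 104, 68.5 and 105 to 23353, 23008 and 25435, a log2 difference of 7.81 ± 0.18. Actc1, cardiac actin, rose from 579.8, 521 and 341 to 33816, 29567 and 37698, a log2 difference of 6.11 ± 0.17. The groups were far apart for both. Tmod1, which caps the thin filament, differed by 4.59, and Acta1, the actin of skeletal muscle that is also made in fetal heart, by 1.96.

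All 21 genes tested of the Z-disk and titin list were higher too (median 4.01), the plate where thin filaments of neighboring sarcomeres meet. Ankrd1, a stretch-responsive protein, rose from 30.8, 56.9 and 70.5 to 20918, 17261 and 19456, a log2 difference of 8.17 ± 0.20. Smpx, a small muscle protein, rose from 24.2, 16.6 and 27.8 to 10035, 10406 and 9288, and Myoz2, which binds calcineurin at the Z-disk, from 26.0, 41.9 and 47.3 to 2568, 2409.9 and 2062. None of these CM values overlapped those of ES-LIF(-). Des, the intermediate filament of muscle (5.67), Ttn, the giant spring of the sarcomere (4.60), and Actn2, which bundles actin there (4.36), also rose. The chaperones Cryab (6.38) and Hspb7 (6.11), which guard these structures, led the small heat shock list, in which 10 of 11 genes were higher and 0 lower. Hspb2 (3.13), Hspb3 (2.33), Hspb8 (2.24) and Hspb6 (1.82), most of them prominent in muscle, followed.

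Promoters of these genes were compared with those of the genes that fell, using RefSeq windows on GRCm38.p6 that run from 250 bases before to 50 after a transcript start. Of the genes tested, 10544 matched 13499 windows. The 5 stretches below, 150 bases each and ending at the base before the start, show matches to the motifs searched in windows of large movers. Genes and motifs shown were picked by hand, and each window was taken because it holds those motifs. The stretches are given 5′ to 3′ on the strand of the gene, with motif matches in capitals.
Tnnc1, chr14:31208162-31208311, plus strand: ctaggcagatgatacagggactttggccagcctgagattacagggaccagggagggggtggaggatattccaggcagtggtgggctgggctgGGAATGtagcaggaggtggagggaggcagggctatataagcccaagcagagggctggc
Actc1, chr2:114052876-114053025, minus strand: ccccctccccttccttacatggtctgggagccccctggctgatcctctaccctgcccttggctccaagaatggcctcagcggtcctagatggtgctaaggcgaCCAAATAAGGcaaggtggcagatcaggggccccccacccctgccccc
Myl7, chr11:5898783-5898932, minus strand: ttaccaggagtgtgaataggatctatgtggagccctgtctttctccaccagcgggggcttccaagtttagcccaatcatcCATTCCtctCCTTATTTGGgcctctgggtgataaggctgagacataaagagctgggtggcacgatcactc
Ankrd1, chr19:36119845-36119994, minus strand: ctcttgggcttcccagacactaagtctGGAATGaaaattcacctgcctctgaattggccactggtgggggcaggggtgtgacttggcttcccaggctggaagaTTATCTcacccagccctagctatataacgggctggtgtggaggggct
Sycp3, chr10:88459437-88459586, plus strand: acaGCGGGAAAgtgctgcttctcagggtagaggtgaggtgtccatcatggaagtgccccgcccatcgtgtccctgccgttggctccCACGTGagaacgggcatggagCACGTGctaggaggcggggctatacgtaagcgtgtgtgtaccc
The capitals mark the CArG box, the serum response factor motif, starting 47 bases before the start of Actc1 and 61 before that of Myl7. They mark the MCAT element CATTCC, bound by TEAD factors, in Tnnc1, Myl7 and Ankrd1 (on the opposite strand as GGAATG in Tnnc1 and Ankrd1), and the GATA motif AGATAA, as TTATCT, in Ankrd1. In Sycp3, a gene that fell, they mark the E2F motif TTTCCCGC on the opposite strand and the E-box CACGTG at 64 and 43 bases before the start. Both strands were searched for each motif named here, and none of the matches shown overlapped another.

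The CArG box lay in 3 of 14 windows of thick filament genes (21.4%), 3 of 18 of thin filament genes (16.7%) and 4 of 23 of Z-disk genes (17.4%), against 1.63% of all 32851 windows and 1.3% of those of genes tested. In other lists that rose, described below, it lay in 2 of 22 windows of cardiac transcription factors, 0 of 21 of calcium handling genes and 0 of 21 of fibrillar collagen genes. The MEF2 site was in 6 of 23 Z-disk windows (26.1%), 2 of 14 thick filament windows, 0 of 18 thin filament windows and 1 of 21 windows of calcium handling genes, against 3.19% of all. CATTCC was in 33.3% of thin filament windows and 4.76% of calcium handling windows, against 14.7% of all. TTTCCCGC was in 6 of 38 windows of the DNA replication genes described below but in 0 of 34 of the mitosis genes, beside 1.07% of all windows, 1.9% of those of genes tested and 3.22% of those of genes lower in CM. AGATAA was in 11.2% and CACGTG in 7.15% of all windows. CpG content differed between the same groups. The ratio of observed to expected CpG had a median of 0.146 for thick filament, 0.249 for thin filament and 0.341 for Z-disk genes, of 0.845 for replication genes and of 0.732 for all genes tested. It was 0.667 for all genes higher in CM, 0.798 for all genes lower and 0.376 for the subset above 10-fold higher. A match is a description of the letters and no evidence of binding, and several windows can belong to 1 gene.

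Calcium handling genes rose with the filaments, 20 of 24 higher and 1 lower (median 2.46). Sln, sarcolipin, an inhibitor of the calcium pump in atrium, went from 4.1, 6.8 and 6.5 to 5760.3, 5442 and 5173, a log2 difference of 7.97 ± 0.35. Pln, phospholamban, its ventricular counterpart, went from 79.7, 129 and 102 to 2271, 2750.0 and 1911, a log2 difference of 4.29 ± 0.22. Both inhibitors were thus high on every CM array. Ryr2, the release channel of the reticulum, rose from 45.3, 46.4 and 69.0 to 469, 387 and 416, and Casq2, which stores calcium beside it, from 89.0, 72.3 and 85.1 to 1127, 1180.4 and 981. The junction proteins Trdn (4.90) and Jph2 (4.04) and the kinase Camk2d (3.59) rose as well. Jph1, the skeletal muscle junctophilin, was the exception and fell by 1.74 on the log2 scale.

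The pump that Sln and Pln restrain, Atp2a2, depended on the probe set. The brightest of its 5 tested probe sets, the one used here, read 8385, 7666 and 7413 in ES-LIF(-) and 7905, 8049 and 7299 in CM, and its log2 difference was -0.01 (adjusted p = 0.888). A second probe set read 1044, 880.7 and 949.2 in ES-LIF(-) and 25646, 23964 and 26443 in CM, a log2 difference of 4.71. Another rose by 4.98, and one more, on a lower signal, by 1.01. So 3 of the 5 were called higher and 0 lower, and the mean over the probe sets differed by 2.19 (adjusted p = 1.16e-11). Where on the transcripts of the gene each probe set lies was not examined.

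Of the ion channel and gap junction genes tested, 5 of 14 were higher and 0 lower, beside 24.3% and 24.5% of all genes. After either median centring or quantile normalization 3 were higher. Another 7 with a probe set of their own had too little signal to be tested. Kcnj5, a subunit of the acetylcholine-gated potassium channel of atrium, rose from 48.1, 20.9 and 54.3 to 450.0, 499 and 388. Kcnh2, the rapid delayed rectifier, rose from 314, 306 and 228 to 1698, 1779 and 1421, and Atp1b1, a subunit of the sodium pump, from 2113, 1983 and 2107 to 9746, 10812 and 10976. Their log2 differences were 3.06, 2.47 and 2.34, with no overlap between groups. The other 2 calls, Kcnj11 and Hcn2, were each lost when any of 4 single arrays was left out, CM replicate 1 or 3 or ES-LIF(-) replicate 1 or 2 (lowest log2 difference 0.68 for Kcnj11 and 0.50 for Hcn2), and 3 of the list were higher without CM replicate 3 or without ES-LIF(-) replicate 2. Without CM replicate 1 or ES-LIF(-) replicate 1 the count was 4, since Kcnq1, a slow potassium channel, passed there. Gja1, connexin 43, the main gap junction protein of ventricle, did not pass at the probe set used (log2 difference -0.13, adjusted p = 0.25), while 2 of its 6 probe sets were called higher and 1 lower.

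Among 9 genes of the natriuretic peptide list, 6 were higher and 1 lower, beside 24.3% and 24.5% of all genes. Nppa, atrial natriuretic peptide, rose from 98.1, 50.6 and 75.4 to 14238, 13847 and 14596 (log2 difference 7.33 ± 0.23). Nppb, brain natriuretic peptide, rose from 61.6, 89.1 and 75.8 to 2723, 2494 and 2340.4 (log2 difference 4.80 ± 0.20). The proteases that ripen them rose too, Corin by 3.47 and Furin by 2.36 on the log2 scale. The receptor Npr2, which binds the related C-type peptide, rose from 96.7, 102 and 59.6 to 609.8, 609 and 679.7, and Npr1, which binds the peptides of both Nppa and Nppb, read 98.7, 143 and 86.3 in ES-LIF(-) and 50.8, 53.1 and 31.8 in CM. Npr1 was called lower (log2 difference -1.03, adjusted p = 0.00588), but its signal was above the array median on 1 of these 6 arrays, and with the filter set on the 6 arrays alone it was not tested and 0 genes of the list were lower.

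Cardiac transcription factors were higher in 21 of 26 and lower in 0 (median 2.65), a smaller median than those of the filament lists. Tbx20, needed for heart chamber growth, rose from 118, 57.7 and 61.6 to 5576, 4728 and 4396, a log2 difference of 5.74 ± 0.21. Gata4, a regulator of many cardiac promoters, rose from 156, 148 and 76.4 to 1711, 1657 and 1557, and Nkx2-5, the homeobox factor of the heart field, from 138, 154 and 92.9 to 1291, 1606 and 1263. Their log2 differences were 3.59 and 3.30, and no CM value overlapped one of ES-LIF(-). Mef2c rose by 4.46, and all 5 of its tested probe sets were called higher. Myocd, a coactivator of serum response factor, rose from 108, 69.5 and 54.2 to 2032, 1969 and 1940.2 and stood at 101, 63.0 and 105 at the CP stage. Hand2, which patterns the right ventricle, Gata6 and Lbh, a transcription cofactor of limb bud and heart, were already raised at CP. Hand2 read 2002, 1868 and 1918 at CP and 1803, 1933 and 1738 in CM, from 44.5, 16.5 and 44.6 in ES-LIF(-). Lbh read 2925, 2841 and 3233 at CP and 8974, 8712 and 7539 in CM, from 288, 263 and 272. Within the list, then, some genes were raised at CP and others were still near the stem cell level there.

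Energy genes had smaller medians than contractile ones. In fatty acid uptake and oxidation 18 of 26 genes were higher and 0 lower, with a median log2 difference of 1.22. Lpl, which frees fatty acids from lipoproteins, went from 828, 659 and 1296 to 5164, 5839 and 5038, and Cd36, a fatty acid carrier of the membrane, from 1.8, 34.1 and 27.3 to 251, 232 and 169.9. Acadvl (1.95) and Acaa2 (2.03) of the oxidation spiral, Cpt1a (1.58), which admits fatty acids to mitochondria, and Pdk4 (1.96), which holds back glucose oxidation, all rose. In the citric acid cycle 5 of 20 were higher and 1 lower, beside 24.3% and 24.5% of all genes. Pdha1, of the enzyme that feeds the cycle from pyruvate, had the largest difference (1.46), and it read 4797, 4406 and 4782 in ES-LIF(-) and 12608, 12648 and 13399 in CM. Oxidative phosphorylation stood at 12 of 67 higher and 1 lower, with a median of 0.32. Of the 4 above 2-fold, 3 were isoforms of complex IV made in heart and skeletal muscle, and the other was Ndufa3, a subunit of complex I (1.13). Cox6a2 rose from 175, 108 and 179 to 3019, 3026 and 2636, Cox7a1 from 275, 262 and 335 to 844, 842 and 777 and Cox8b from 42.1, 58.8 and 14.4 to 396, 299 and 299.7. Their log2 differences were 4.12, 1.46 and 2.76. The count of this list depended on the scaling, with 4 higher after median centring and 22 after quantile normalization.

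In glycolysis 6 of 22 were higher and 4 lower (2 lower without ES-LIF(-) replicate 1), close to the shares over all genes. Pgam2, muscle phosphoglycerate mutase, rose from 137, 93.0 and 51.7 to 4315, 5353 and 4414 and Eno3, muscle enolase, from 618, 605 and 682 to 5964, 6226 and 6417. Slc2a4, the insulin-regulated glucose carrier, rose from 274, 233 and 182 to 474, 640.3 and 524, and Hk1, the first enzyme of the path, from 711, 698 and 628 to 2985, 3229 and 2682. Eno2, the enolase of neurons, rose by 1.69. The 4 that fell were Slc16a3, which exports lactate (-0.93), Pfkl, the liver phosphofructokinase (-0.87), Hk2, another hexokinase (-0.66), and Slc2a1, the common glucose carrier (-0.60). In the list of energy stores 3 of 7 genes were higher and 1 lower, against 24.3% and 24.5% of all genes. Mb, myoglobin, rose from 11.5, 17.3 and 8.8 to 2895, 3694 and 3267, a log2 difference of 6.86 ± 0.42. Gatm, which starts creatine synthesis, fell from 326, 243 and 259 to 102, 104 and 103. Of the regulators of mitochondrial genes 4 of 10 were higher and 2 lower, beside 24.3% and 24.5% of all genes. After either median centring or quantile normalization 3 were higher. Ppargc1a, a coactivator of oxidative metabolism, rose from 73.6, 66.5 and 69.7 to 322, 349 and 289, and Esrra by 1.18. Tfam, which maintains mitochondrial DNA, fell from 2972, 3071 and 3149.6 to 1514, 1346 and 1391, and Nrf1, which drives it, from 1215, 1016 and 1059 to 468, 352 and 518. The log2 differences of the latter pair were -1.11 and -1.28.

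The largest falls named other genes than the core factors of pluripotency. The 15 were Platr10, Pou3f1, Meioc, Ccnb1ip1, Slc27a2, Sned1, Sycp3, Calcr, Ugt8a, Rbmxl2, Slc35d3, Ddx4, Zic5, Slc7a3 and Mei4, from -5.38 to -3.11 on the log2 scale. Platr10, a noncoding RNA of stem cells, went from 1019.5, 1413 and 1198 to 16.5, 8.9 and 14.9, a log2 difference of -5.38 ± 0.18 (adjusted p = 3.9e-12). No CM array came near the ES-LIF(-) values. Meioc, needed to stay in meiotic prophase, fell from 557, 790.0 and 462 to 42.6, 22.3 and 17.7. Sycp3, of the synaptonemal complex, fell from 1036, 1307 and 1087 to 121, 99.4 and 67.4, and Ddx4, the germ cell helicase, from 664, 909 and 725 to 58.7, 51.8 and 86.4. All CM values of these genes lay below all ES-LIF(-) values, which the choice of the 15 required. Mei4 and Ccnb1ip1 act in meiotic recombination, and they differed by -3.11 and -3.49. Pou3f1, an epiblast and neural factor, fell from 3584, 3885 and 3419.8 to 193, 162 and 198.

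Of 28 pluripotency genes tested, 25 were lower and 0 higher, with a median log2 difference near -1.5. Pou5f1 went from 11577, 11323 and 11184 to 1771, 1557 and 2233, a log2 difference of -2.62 ± 0.10 (adjusted p = 1.07e-11). Sox2 fell from 5929.7, 8176 and 7452 to 1178, 1095 and 1357, and Fgf4, the growth factor they switch on together, from 2333, 2601 and 2609.7 to no more than 320.4 on any CM array. Each CM array was below each ES-LIF(-) array for these genes. Nanog fell less, from 3446, 3420.0 and 3388 to 1384, 1334 and 1988, a log2 difference of -1.14. Its course over the stages was not monotonic, since it read 6904, 7133 and 7744 with LIF and 6235, 6519 and 6049 in CP, both above its ES-LIF(-) values. Zfp42, a marker of the naive state, showed the same order, at 14759, 15455 and 15087 with LIF, 2129.5, 4846 and 4366 in ES-LIF(-), 7865, 8468 and 8023 in CP and 1479.6, 1356 and 1939.8 in CM. Dppa4, a chromatin protein of pluripotent cells, fell from 3956, 4698 and 4587 to 486, 499 and 602, and L1td1, an RNA-binding protein, from 9459, 11068 and 10153 to 1211, 1217 and 1371. Mycn, a driver of stem cell growth, fell by 2.13, and Mybl2, a cell cycle factor, by 1.46 on the log2 scale. Utf1, a chromatin factor of stem cells, fell by 1.76, with 2 of 3 probe sets lower and 1, of low signal, higher. For ES-LIF(-) against ES-LIF(+), a comparison that shares the ES-LIF(-) arrays, the median of this list was -0.58, with 14 genes lower and 0 higher.

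For 2 lists the values with LIF are given as well. Against ES-LIF(+), 4.13% of all genes were higher in ES-LIF(-) and 3.8% lower. Of 20 LIF and STAT3 targets 13 were lower and 0 higher, and of 21 primed epiblast genes 18 were higher and 0 lower. Between ES-LIF(-) and CM the first list then held 11 genes higher and 4 lower, and the second 0 higher and 19 lower. The 4 LIF targets with the largest response to LIF were Klf4, Socs3, Bcl3 and Gbx2. Klf4, a naive state factor, read 2078, 3151 and 2969 in ES-LIF(+), 152, 181 and 111 in ES-LIF(-), 1684, 1756 and 1840.5 in CP and 1086, 911 and 799 in CM. Socs3, the feedback inhibitor of the LIF receptor, read 3565, 4099 and 3966 in ES-LIF(+), 310.4, 324 and 332 in ES-LIF(-), 862, 1046 and 860.3 in CP and 670.3, 522 and 576 in CM. Bcl3, a STAT3 target, read 809, 964 and 764 in ES-LIF(+), 109, 99.7 and 60.3 in ES-LIF(-), 648, 618 and 658 in CP and 308, 247 and 374 in CM. The genes were chosen for their fall into ES-LIF(-), so their low there follows from the choice and is a description. CM values were above those of ES-LIF(-) by 2.54, 0.83 and 1.64 on the log2 scale. Gbx2, a homeobox factor, differed from them and went down again, at 1044, 887 and 815 in ES-LIF(+), 219, 378 and 169 in ES-LIF(-), 513, 485 and 442 in CP and 58.2, 63.5 and 86.3 in CM. Stat3 itself rose from 599.6, 567 and 559.8 to 4049.6, 4446 and 3914, a log2 difference of 2.81 ± 0.11, and Il6st, the receptor subunit shared by LIF and IL6, by 1.75. Both comparisons use the same ES-LIF(-) arrays. In CM against ES-LIF(+), a comparison without the ES-LIF(-) arrays, 25.8% of all genes were higher and 23.9% lower, while the LIF and STAT3 list held 6 higher and 11 lower and the primed epiblast list 1 higher and 11 lower. Ier3, an early response gene, had the largest rise of the list to CM, from 296, 236 and 301 to 2354, 2678 and 2213, and Cish, another feedback inhibitor, rose from 383, 262 and 358 to 1355, 1214 and 1344.

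**Figure D3:**
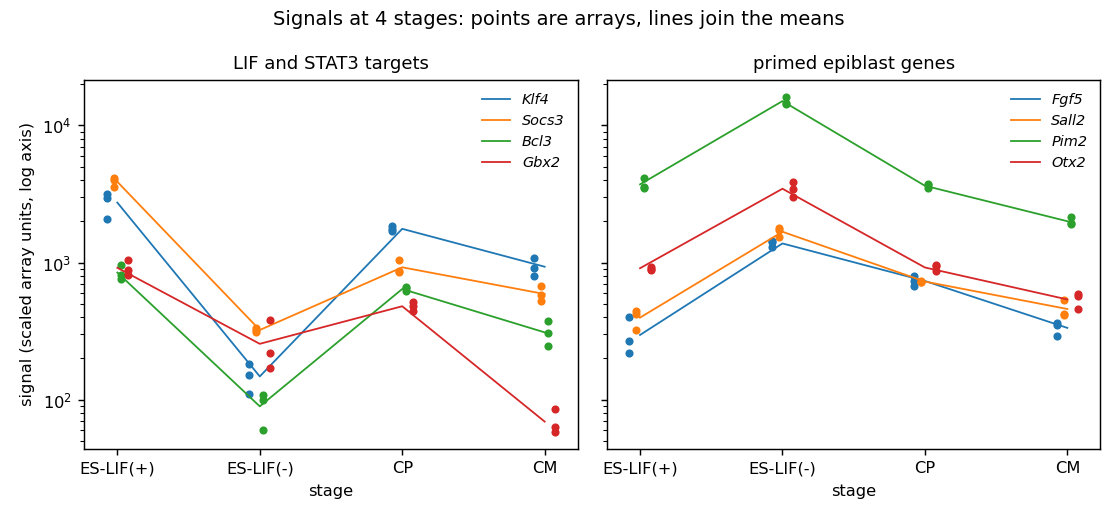
Signal (log axis) of 4 LIF and STAT3 targets (left) and 4 primed epiblast genes (right) at the 4 stages, with points for arrays and lines through the means. The left genes have a trough at ES-LIF(-), after which Gbx2 alone ends lower in CM, and the right genes peak at ES-LIF(-).

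The primed epiblast genes with the largest response were Fgf5, Sall2, Pim2 and Otx2. Fgf5, the classic marker of that state, read 218, 267 and 404 in ES-LIF(+), 1401, 1291 and 1440.3 in ES-LIF(-), 671, 733 and 798 in CP and 362, 348 and 292 in CM. Otx2, a homeobox factor of the epiblast, read 934, 905 and 888 in ES-LIF(+), 3007, 3446 and 3894 in ES-LIF(-), 956, 861 and 945 in CP and 571, 457 and 586 in CM. Pim2, a kinase, read 3556, 4098 and 3483 in ES-LIF(+), 16214, 14594 and 14238 in ES-LIF(-), 3653, 3511 and 3717 in CP and 1942, 1899 and 2159 in CM. Their peak in ES-LIF(-) likewise follows from how they were chosen. The differences to CM were -2.00, -2.64 and -2.90 on the log2 scale. For Sall2, a zinc finger factor, the difference was -1.84. The de novo DNA methyltransferase Dnmt3b went from 16186, 15889.7 and 15335 to 3519.9, 3334 and 3394. Dnmt3a fell by 1.95 at the probe set used, with 3 of its 5 probe sets lower and 2 higher. Genes of the Nodal pathway, which keeps the epiblast from turning neural, were lower in 7 of 11 and higher in 3, or in 1 after either median centring or quantile normalization. Nodal itself fell from 3218, 3091 and 3701 to 704, 554 and 730.2. Its coreceptor Tdgf1 fell from 10229, 10194 and 9275 to 2576, 2155 and 2707 and its inhibitor Lefty1 from 3622, 4467 and 3645 to 1456, 1109 and 1276, so that ligand, coreceptor and inhibitor were all lower. Of the primitive streak and mesoderm list, 8 of 12 were higher and 0 lower, at low signals: Lhx1 went from 48.3, 70.4 and 134 to 571, 551 and 573 and Mixl1 from 400.0, 238 and 481 to 865, 781 and 781. Foxf1, of lateral plate mesoderm, rose by 2.08, Gsc, of the organizer, by 1.99, and Kdr, the VEGF receptor of vessel and heart precursors, by 1.22 on the log2 scale.

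Of 40 genes of DNA replication tested, 37 were lower and 0 higher (median -1.33), and of 39 of mitosis, 35 and 0 (median -1.30). Mcm5, part of the replicative helicase, fell from 11968, 14669.7 and 14147 to 3948, 3580.2 and 4818, a log2 difference of -1.73 ± 0.10. Pole, the leading strand polymerase, fell from 1472, 1555 and 1563 to 309.5, 254 and 345, and Bub1, the spindle checkpoint kinase, from 3518, 3872 and 3778 to 1028, 994 and 1165. Mki67, the common marker of dividing cells, fell from 2484, 2859 and 2805 to 842, 980.4 and 1016. These falls lay between -1.51 and -2.29 on the log2 scale, with no overlap of groups. Rfc5, a clamp loader (-2.02), Ect2, which drives cell division at its last step (-2.13), and Incenp, of the chromosomal passenger complex (-1.97), were among the largest of their lists. Some cell cycle inhibitors went the other way, while another, Cdkn1c, was called lower at a log2 difference of -0.90. Cdkn1a, p21, rose from 1512, 1390.5 and 1449.5 to 7953, 7736 and 6963 and Cdkn2b, p15, from 158, 224 and 149.8 to 1656, 1654 and 1947. Ccnd2, a cyclin of the first gap phase, also rose, from 799.9, 671 and 731 to 15218, 15436 and 14647. Its log2 difference of 4.34 was the largest of the 22 genes in the list of such cyclins and inhibitors. Of that list 8 were higher and 6 lower (36.4% and 27.3%), beside 24.3% and 24.5% of all genes, and 7 and 8 after median centring.

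Ribosome biogenesis followed replication, with 37 of 43 genes lower and 0 higher (median -1.15). Utp14a, of the small subunit processome, fell from 5757, 4984 and 5119.7 to 1034, 1028 and 1132, and Dkc1, which modifies ribosomal RNA, from 7977, 8249.9 and 8100.3 to 2489.6, 2267 and 2856. Splicing genes were lower in 32 of 36 and higher in 0 (median -0.87), and 14 of the 32 passed a fold above 2. Srsf10, a splicing regulator, fell by 1.65 on the log2 scale, from 3493, 3985 and 3418 to 1113, 1086 and 1229.7. In DNA methylation 7 of 12 genes were lower and 2 higher (58.3% and 16.7%), beside 24.5% and 24.3% of all genes. The lower genes included Dnmt3l, the cofactor of the de novo enzymes (2486, 3769.6 and 2738 to 390.4, 404 and 637), and Tet1, which oxidizes methylcytosine (1806, 2636 and 2529 to 629, 562 and 611). In the polycomb list 10 of 19 were lower and 5 higher (52.6% and 26.3%), the latter near the share over all genes. Phc1 fell from 11883, 12586 and 12458 to 1724, 2197 and 2297 and Cbx7 from 2886, 3343 and 3210.4 to 537, 644 and 534, while Bmi1 rose from 172, 258 and 217 to 655, 771 and 722. The median of the list, -0.78, turned to 0.0083 when all probe sets of a gene were averaged.

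**Figure D4:**
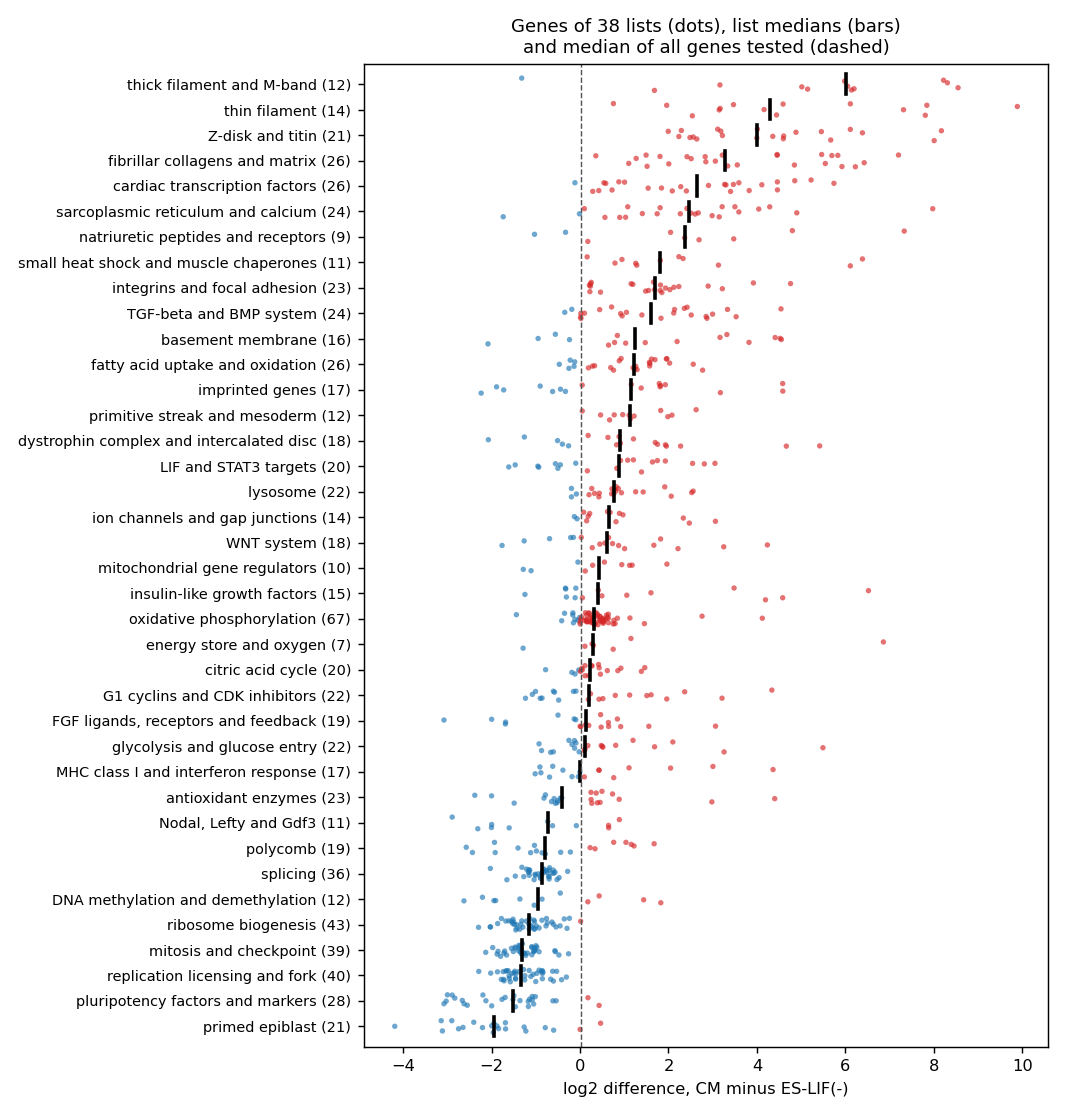
Log2 difference CM minus ES-LIF(-) of every tested gene in 38 lists (dots, red above 0 and blue below), ordered by the list median (bars), with the number of genes in brackets and the median of all genes, 0.03, as a dashed line. Filament lists reach medians of 4.01 to 6.01 at the top, and primed epiblast genes are at the bottom.

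Matrix genes formed the other large rise. Fibrillar collagens and their partners were higher in 25 of 26 and lower in 0 (median 3.28), Vcan alone missing the fold. Several of these genes also mark fibroblasts, whose markers are given below. Col1a1, the main collagen of fibroblasts, rose from 428, 267 and 379 to 19925, 20699 and 22046 and was at 25018, 28394 and 26319 in CP. Lox, which cross-links it, rose from 95.8, 57.3 and 12.4 to 9412, 9538 and 8187 and was at 17883, 18948 and 16913 in CP. Both were thus higher at CP than in CM. Fbln2, of elastic fibers and valves, rose by 6.42, Postn, periostin, by 5.92, and Bgn, a proteoglycan, by 5.69. The basement membrane, which surrounds each myocyte, was higher in 12 of 16 and lower in 2. Col4a1, its main collagen, went from 1619.9, 1172 and 1340.0 to 20387, 19036 and 19080.0, with 13519.9, 14450.4 and 14533 in CP, and Lama4, a laminin, from 8.5, 17.0 and 9.0 to 639, 472 and 593. These 2 were above their CP values on every CM array. Integrins and focal adhesion genes were higher in 17 of 23 and lower in 0. Itgb1, the common chain of many integrins, rose from 3827, 3339 and 3491 to 15074, 14799 and 16659.6, and Parva, which links integrins to actin, from 246, 227 and 257 to 2078, 1947 and 1731. Itgb1bp2, melusin, a muscle partner of integrins, rose from 18.7, 44.5 and 109.7 to 1829, 1959.8 and 1421. In the dystrophin and intercalated disc list 12 of 18 were higher and 2 lower. Cdh2, N-cadherin of the intercalated disc, rose from 1019, 992 and 939.9 to 5191, 4993 and 4315, and Cdh1, E-cadherin of stem cells, fell from 11341, 12275 and 11615 to 3069.8, 2615 and 2679. Cav3, caveolin of muscle, rose from 7.2, 6.9 and 4.6 to 1107, 902 and 814.

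Of 24 genes of the TGFβ and BMP system 17 were higher and 0 lower. Tgfb2, a ligand of heart valve formation, rose from 254, 205 and 235 to 2099, 2006 and 1766, Bmp2 from 38.6, 66.4 and 35.9 to 422, 407 and 457, and the inhibitor Smad6 from 180.3, 114 and 124 to 1724, 1818 and 1708. The receptor Tgfbr2 rose from 256, 163 and 233 to 1786, 1686 and 1527 and had been higher at CP, at 3565, 3810.1 and 3229. Ligands and inhibitors of the pathway were thus both raised. Igf2, a fetal growth factor, went from 587, 465 and 545 to 12452, 13269 and 13474. Igfbp7, a binding protein, went from 315, 221 and 141 to 19953, 21375 and 22369.8. Their list held 6 of 15 genes higher and 1 lower, beside 24.3% and 24.5% of all genes. Igf1 rose from 44.0, 56.9 and 49.9 to 587, 872 and 736 and Igfbp5 by 4.19, and Igf2bp1, which binds the messages of fetal growth genes, fell by 1.24 on the log2 scale. WNT genes were higher in 9 of 18 and lower in 3, against the same shares over all genes. Wnt5a and Wnt11, ligands of the branch without β-catenin, differed by 3.25 and 1.67, the inhibitors Dkk3 and Dkk1 by 4.24 and 2.22, and Tcf7l1, a repressor of WNT targets in stem cells, by -1.76. FGF genes were higher in 4 of 19 and lower in 4, close to the shares over all genes of 24.3% and 24.5%. Fgf12, an intracellular member that tunes sodium channels, rose from 30.0, 34.1 and 20.5 to 319.7, 374 and 359, while Fgf15 fell from 644, 559.5 and 409.5 to 111, 177 and 182, and Etv5, a transcription factor that answers FGF signals, from 5234, 6313 and 5145 to 1826, 1634 and 1693.

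Markers of other cell types moved with the comparison, and their part in the results above was not tested. Sums below cover every marker with a probe set of its own, and counts only those with enough signal to be tested. A marker low in ES-LIF(-) could be tested only through arrays of other stages, which favors calls as higher. Smooth muscle markers were higher in 4 of 5, and their summed signal was 59595 to 68658 in CM against 4782 to 5517 in ES-LIF(-). Acta2 and Tagln, of smooth muscle and also of the young heart, carried most of it, while Myh11, the defining smooth muscle myosin, read 284, 192 and 202 in CM. Fibroblast markers were higher in 6 of 7, with sums of 36020 to 38122 against 942 to 1427. Dcn, a matrix proteoglycan, read 1392, 1389 and 1006 in CM and 16985, 17672 and 16645 in CP, and Thy1 was not called. Endothelial markers were higher in 3 of 5 tested, with sums of 1837 to 2293 against 838 to 998, and Vwf read 5.0, 29.7 and 3.0 in CM. Leukocyte markers were higher in 2 of 3 tested (sums 1593 to 1856 against 770 to 824), with Ptprc, which defines the class, at 73.3, 44.2 and 67.2. Of the skeletal muscle list 2 of 3 tested were higher, Acta1 and Ckm, genes that heart also uses, while the defining factors were low, Myod1 at 72.5, 131 and 140.0 and Myf5 at 0.8, 1.2 and 34.8 in CM. Endoderm markers were higher in 3 of 3 tested, while the rest of the 7 with a probe set had too little signal to be tested. Sums over the 7 were 1345 to 2579 in CM against 396 to 550 in ES-LIF(-). Epithelial and mesothelial markers were higher in 4 of 6 and lower in 1, with sums of 15784 to 17729 against 15494 to 19492. Mesothelial Upk3b rose from 7.3, 55.7 and 87.7 to 1926, 2153 and 1639, while the epithelial Epcam fell from 10514, 9317 and 10055 to 1697, 1889 and 2219.7. Neural markers were higher in 1 of 5 and lower in 2, with sums of 3577 to 3656 against 2866 to 3196. Tubb3 rose by 1.08 and Pax6 fell by 1.31 on the log2 scale, while Sox1 fell from 109.6, 215 and 109 to 4.0, 5.9 and 6.5.

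The sum of erythroid markers, of which 2 of 3 tested were higher, ran from 707 to 17906 over the CM arrays against 233 to 329 in ES-LIF(-), the widest spread of the marker sums. The embryonic globin Hbb-bh1 read 5.0, 6.0 and 51.2 in ES-LIF(-) and 424, 1812 and 7947 on CM arrays 1, 2 and 3. Hba-x read 129, 712 and 8023 and Hbb-y 6.0, 10.9 and 1532 on the same arrays, so that replicate 3 was the highest for each. Hba-x was called at a log2 difference of 2.88 (adjusted p = 0.0144), and without CM replicate 3 it stood at 1.34 (adjusted p = 0.0628). Hbb-bh1 was still called without it, at 4.83. Ttr, a transport protein of yolk sac endoderm and liver, ran with the globins, at 233, 538 and 1311 in CM against 37.2, 6.1 and 3.0. Tnnt2 and Col3a1 did not, the latter reading 11157, 10298 and 10438. Without CM replicate 3, 3059 genes were higher and 3270 lower.

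**Figure D5:**
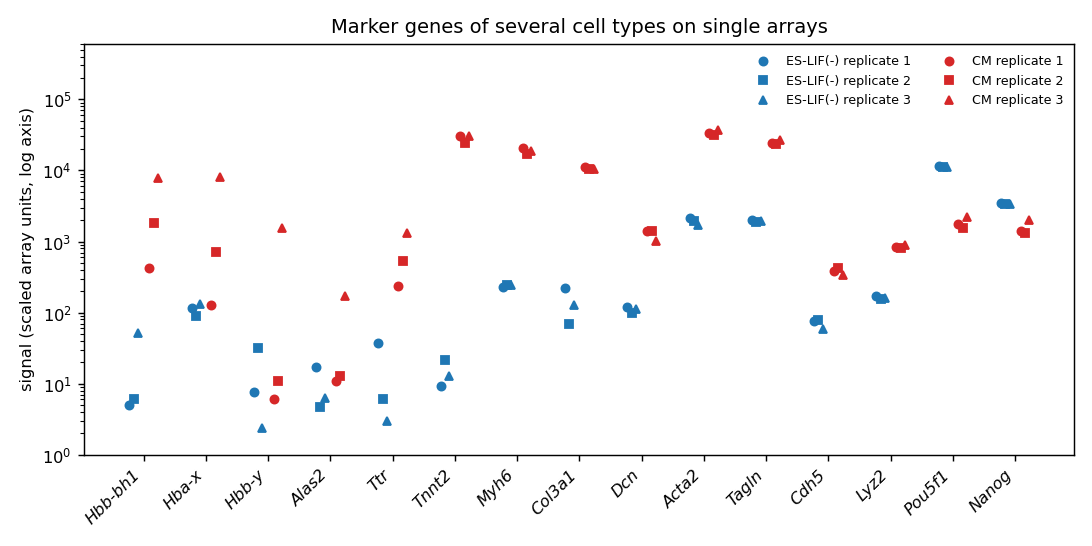
Signal (log axis) of marker genes of blood (Hbb-bh1 to Alas2), endoderm (Ttr), heart, fibroblast, smooth muscle, endothelium, leukocytes and stem cells on the 3 ES-LIF(-) arrays (blue) and 3 CM arrays (red), with a symbol for each replicate. Hbb-bh1, Hba-x, Hbb-y, Alas2 and Ttr are highest in CM replicate 3, where Hba-x reads 8023 against 129.4 in replicate 1, while the CM points of the heart genes lie together.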

How the data were processed

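RNA was measured on mouse 3′ expression arrays, 3 per stage, each from an independently sampled culture according to the study's methods. The deposited intensity values are signals that the authors made with MAS5 (named in the submitters' processing notes, version not given in the sources used here), on a linear scale, and every array has a trimmed mean of 500 after removal of 2% at each end. Values of log2(signal + 16) from all 12 arrays were fitted with limma 3.58.1 in R 4.3.3, with 1 mean per stage, an intensity trend and no block, and Benjamini-Hochberg adjustment over all features tested. Tests took probe sets above their own array's median on at least 3 arrays. Control probe sets (64) were set aside. Platform annotation named 1 gene for 34945 probe sets, several for 932 and none for 9160, and a gene was its brightest probe set naming it alone. Of 970 genes written in 38 lists and 11 marker lists, 49 lack a probe set of their own.

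Genes named are the 15 largest rises and 15 largest falls without overlap of groups, up to 6 called members per list with the largest difference, marker genes, the study's PCR genes and the 4 genes of the LIF and epiblast lists with the largest response to LIF. Atp2a2, Gja1, Gata4, Mki67, Ttn, Myh7, Myh7b, Cpt1a, Jph1, Npr1, Ryr2, Kcnq1, Pfkl, Hk2, Slc2a1, Ifitm1, Fscn1, Vcan and Cdkn1c were chosen after their values were seen. Members and lists were chosen with earlier results of these data known. The fit was tested on simulated data, with 67 of the brighter probe sets changed at each fold. It called 44 of those changed 2-fold, 51 changed 3-fold and 65 changed 4-fold, with 9 false calls among 24941 tested. Alternatives changed the scaling, pseudocount (1 and 64), filter, fold, variance trend, arrays fitted and probe set rule, added a replicate block, replaced the test by an analysis of variance over the stages, and left out each array in turn.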

Additional observations from a re-analysis of the deposited data

How the results depend on the processing

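Counts of calls were recomputed with 1 choice changed at a time. The threshold of a fold above 2 left 2995 probe sets lower, 2050 genes higher and 1673 genes lower, fewer by construction, and 4585 probe sets higher. Every other setting kept the counts of genes and probe sets within 1.5 times those reported, though both scalings moved the split. Median centring gave 36.3% and quantile normalization 44.5% of probe set calls as higher, against 54.6%, and a filter on all 3 CM arrays gave 60.0%. Leaving out any of the 6 arrays gave 3059 to 3179 genes higher and 3162 to 3270 lower, and 6458 to 6781 probe sets higher and 5484 to 5713 lower. No gene was called in the opposite direction under any setting except the mean over probe sets, which turned 12. There, the polycomb median was 0.0083, Heatr1 stood at 0.00825 (adjusted p = 0.972, limma) with 1 of 3 probe sets higher, and Atp2a2 at 2.19. Of 282 named genes, 21 fell below a threshold under some setting, among them Kcnj11, Hcn2, Esrrg and Hba-x, and 2 passed, Myh7b and Vcan. Among the list counts that median centring moved by over 1.5 times were LIF and STAT3 targets (4 to 7 lower), the Nodal pathway (3 to 1 higher), oxidative phosphorylation (12 to 4 higher), lysosome (13 to 7 higher) and antioxidants (6 to 12 lower). The replicate block gave 3209 genes higher and 3217 lower and brought Myh7b past the threshold (-1.32, adjusted p = 0.0255). Same-numbered CM and ES-LIF(-) arrays correlated at 0.00372, -0.000196 and -0.023 in their deviations from the group means. Arrays of other numbers ran from -0.0416 to 0.0408. Whether arrays of 1 number shared a culture or a batch was not tested. With 3 arrays a group and no read counts, array signal near background limited what low genes could show.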

Other observations

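Imprinted genes are expressed from the copy of 1 parent and are often tied to fetal growth. Of 17 tested, 9 were higher and 5 lower (52.9% and 29.4%), beside 24.3% and 24.5% of all genes. Dlk1, a growth regulator, rose from 856, 698 and 479.5 to 16406, 16619 and 15563, and Plagl1, a zinc finger factor that is high in fetal heart, from 1952, 1710.0 and 1698 to 17127, 15097 and 16481. Phlda2, a brake on placental growth, fell from 1665, 1440.3 and 1661 to 496, 272 and 535, so the direction was not shared. Grb10, an adaptor that dampens insulin signaling, fell by 2.23 on the log2 scale at the probe set used, while 1 of its 3 probe sets was higher.

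Of 23 antioxidant genes 4 were higher and 6 lower, near the shares over all genes of 24.3% and 24.5%. Gpx3, a secreted glutathione peroxidase, rose from 1107, 1012 and 848 to 21119.5, 20705 and 21488, a log2 difference of 4.40 ± 0.10 (limma adjusted p = 4.32e-14). The enzymes of glutathione synthesis fell, Gclm from 4006, 3219.6 and 3356 to 689, 971 and 971 and Gclc from 2318, 1736 and 1957 to 725, 526 and 894, as did the transferase Gsta4, from 7785, 8759 and 8997 to 1422, 1707 and 1758. Lysosomal genes were higher in 13 of 22 and lower in 0, among them the proteases Ctsb (log2 difference 2.06) and Ctsd (1.92). Median centring turned these counts to 2 higher and 12 lower for the antioxidant list and to 7 higher for the lysosome. Of the interferon and antigen presentation list, 5 of 17 were higher and 4 lower, again near those shares. Ifit3 and Ifit1, induced by interferon, rose from 22.1, 12.6 and 26.6 to 932, 544 and 746 and from 77.4, 70.3 and 41.5 to 667, 537 and 618, and B2m, the partner of class I molecules, from 3127, 2597 and 3309 to 11146, 13239.5 and 13016. The guanylate-binding protein Gbp2 (-1.01), the class I gene H2-K1 (-0.91) and the membrane protein Ifitm1 (-0.88) fell.

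Probe sets of 1 gene did not always move together. Of 5910 genes with more than 1 tested probe set, 4363 had at least 1 called, and 271 of these (6.21%) had probe sets called in both directions. Among the 6730 genes not called, 1263 had another probe set that was, and in 13 of them it was above 10-fold. Atp2a2 was 1 of the 13. Fscn1, an actin bundler, was another, with a probe set higher by 5.49 on the log2 scale. Both were chosen for mention after their values were seen, and the cause of these gaps was not tested.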
